A study of Mus musculus with 6 samples.

Results

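The autophagy machinery and its cargo receptors were followed here as 38 genes. They were chosen by name from the 47729 genes of the count table, with earlier results of these data known. They comprised 11 genes of initiation and nucleation, 5 of phagophore lipid supply, 10 of the conjugation systems, the 5 ATG8 family genes and 7 receptor genes. All 38 were found by their Ensembl identifiers and all 38 passed the filter on low counts. RNA came from bone marrow of mice lacking the SNORD113-114 cluster of small nucleolar RNAs, part of the imprinted Dlk1-Meg3 domain, and from wildtype mice. Each genotype had 3 poly(A) libraries without strand information, called cluster KO 1 to 3 and wildtype 1 to 3. The series design names 3 mice per genotype, but no label ties a library to an animal, so the p-values measure the spread between libraries. The sources used here do not give how the deletion was made, the strain, age or sex of the mice, or whether the marrow cells were sorted.

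Autophagy delivers cytoplasm, organelles and protein aggregates to the lysosome inside a double-membraned vesicle. The ULK kinase complex starts the process, and a class III phosphatidylinositol 3-kinase complex built around Beclin 1 marks the membrane from which the phagophore grows. Ubiquitin-like conjugation systems then attach the ATG8 proteins (the LC3 and GABARAP subfamilies) to phosphatidylethanolamine on that membrane, where receptors such as p62 tether their cargo. In blood formation, autophagy is known for clearing mitochondria from maturing red cells and from hematopoietic stem cells.

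Libraries held between 17663369 and 23459168 counts on genes, and the lowest member count in any library was 32, for Atg9a. Counts did not check the deletion, since the 23 snoRNA genes of the region summed to 0 counts in cluster KO and to 1 in wildtype, and poly(A) libraries hold few such RNAs. Rian and Mirg, the genes at the ends of this region, also had few counts. Rian had 9, 6 and 3 in cluster KO against 11, 5 and 38 in wildtype, with overlap, and Mirg 1, 1 and 1 against 14, 1 and 5. Libraries of the same genotype were distinct (chi-square per degree of freedom from 12.2 to 71.4). Reads outside genes took 7.29 to 10.05% of the reads in cluster KO and 10.03 to 11.06% in wildtype libraries, and rRNA genes took 0.251 to 0.614% and 0.998 to 1.44% of the gene counts. Reads with more than 1 alignment (13.38 to 14.68% against 16.12 to 16.81%) and mitochondrial genes (1.46 to 2.17% against 2.72 to 3.06% of gene counts) were also lower in cluster KO without overlap (two-sided exact permutation p = 0.1 for each). The deposited label is bone marrow. No marker list of a marrow cell type had a gene without reads in all 6 libraries. Any read meets this (Col1a1 had 0 to 6 counts per library), so it does not check the tissue. The summed level of 10 B lineage markers was 2140 to 2310 CPM (read counts scaled to a common library size) in cluster KO and 717 to 780 CPM in wildtype libraries. For 6 megakaryocyte markers it was 109 to 157 against 295 to 400 CPM, for 4 mast cell and basophil markers 149 to 175 against 59.2 to 99.3 CPM, for 8 monocyte markers 150 to 255 against 126 to 135 CPM, and for 7 stem and progenitor markers 934 to 950 against 821 to 842 CPM. The sums of 11 neutrophil (10600 to 20100 against 6260 to 12100 CPM) and 11 erythroid markers (785 to 1100 against 1080 to 1470 CPM) overlapped between the genotypes, as did those of T and NK cells and of stroma. Single genes of these lists still differed (edgeR adjusted p under 0.05). Of the neutrophil markers 4 of 11 were higher (36.4%) and 0 lower, and of the erythroid markers 6 of 11 were lower (54.5%) and 0 higher. Over all genes tested 15.9% were higher and 12.1% lower. The part of these differences in reads and markers in the autophagy values was not tested. In bulk RNA, fewer cells of a type and less RNA per cell cannot be told apart.

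Of the 38 genes 15 were higher in cluster KO and 0 were lower (edgeR quasi-likelihood test, adjusted over all 15686 genes tested). Across all genes tested, 15.9% were higher and 12.1% lower, and 27.9% passed in either direction. Among genes with counts high enough for a minimum of 50, 20.8% were higher. At an unadjusted p under 0.05, 1 member, Atg2a, was lower by edgeR and 1 by DESeq2. DESeq2 at its adjusted threshold called 16 members higher, among them all 15, and 0 lower. The median log2 fold change of the members was 0.21, against 0.00 (0.002) for all genes tested. The members together took 0.318, 0.352 and 0.363% of the gene counts in cluster KO against 0.273, 0.261 and 0.241% in wildtype. In 23 of 38 members the libraries of the genotypes did not overlap, where 46% of all genes tested had no overlap. Upper quartile scaling shifted the log2 fold change of all genes by a median of -0.105, moved the higher share of all calls from 56.8% to 46.6%, and left 13 members higher and 0 lower. Without cluster KO 2, 8 members were higher against a background of 7.75% of genes, and without wildtype 3, 8 members against 8.02%.

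**Figure D1:**
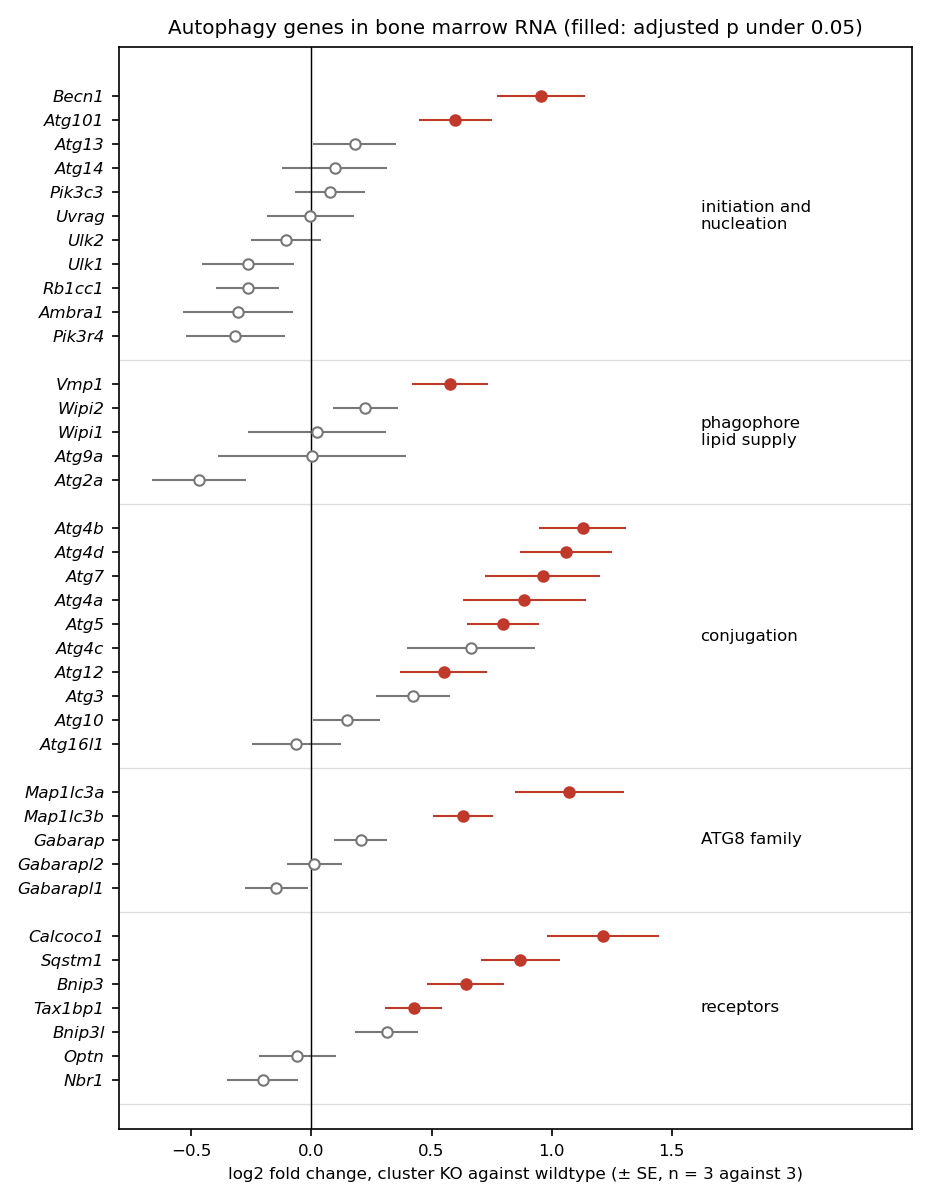
Log2 fold change of each of the 38 genes (x axis, cluster KO against wildtype, ± SE, 3 libraries each), grouped by role. Filled points are the 15 genes that passed, all to the right of 0, and the open points run from -0.47 for Atg2a to 0.66 for Atg4c.

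The members were also looked at by the sequence before their start, since 15 of them were higher together. RefSeq promoters on GRCm38.p6 matched 31 of the 38 genes. Each was searched on both strands, over the 250 bases before the first start listed for the gene, for the letters CACGTG, the E-box core read by TFEB and TFE3, transcription factors of autophagy and lysosome genes. Of the 31 windows, 4 held it (12.9%), against 6.05% of 27025 promoters of the same length. The median GC content was 58.8% in the member windows and 52.0% in all promoters, and its part in these shares was not tested. They were 3 of the 12 matched genes that were higher (Atg5, Atg7 and Bnip3) and 1 of the 19 that did not pass (Atg3). The sequences below are shown because they carry this motif, in capitals, 5′ to 3′ on the gene's strand, each ending at the base before the start.
Atg5: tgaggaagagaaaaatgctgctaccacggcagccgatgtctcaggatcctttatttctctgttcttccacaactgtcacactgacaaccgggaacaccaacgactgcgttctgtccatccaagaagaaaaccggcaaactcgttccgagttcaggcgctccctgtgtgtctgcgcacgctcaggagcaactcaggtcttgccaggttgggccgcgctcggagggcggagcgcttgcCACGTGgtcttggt
Atg7: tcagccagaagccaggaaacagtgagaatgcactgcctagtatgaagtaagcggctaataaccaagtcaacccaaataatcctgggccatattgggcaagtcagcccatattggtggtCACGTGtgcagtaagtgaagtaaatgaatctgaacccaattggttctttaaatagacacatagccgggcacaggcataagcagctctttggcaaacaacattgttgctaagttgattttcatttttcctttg
Bnip3: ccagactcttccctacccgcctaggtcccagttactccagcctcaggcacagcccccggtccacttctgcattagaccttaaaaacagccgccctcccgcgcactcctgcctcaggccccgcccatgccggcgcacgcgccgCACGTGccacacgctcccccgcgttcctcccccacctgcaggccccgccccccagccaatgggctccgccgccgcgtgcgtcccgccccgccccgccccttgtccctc
Atg3: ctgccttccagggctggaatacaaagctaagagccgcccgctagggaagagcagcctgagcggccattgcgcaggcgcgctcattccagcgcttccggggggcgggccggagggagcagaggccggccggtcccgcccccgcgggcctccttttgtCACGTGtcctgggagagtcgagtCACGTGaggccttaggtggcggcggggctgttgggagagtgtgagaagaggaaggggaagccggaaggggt
These windows are chr10:44268089-44268338 (plus strand) for Atg5, chr6:114670846-114671095 (plus) for Atg7, chr7:138909507-138909756 (minus) for Bnip3 and chr16:45158579-45158828 (plus) for Atg3. The Atg7 window lies inside the gene as GENCODE draws it, which starts at 114643097. The first base of the motif stood 14 bases before the start of Atg5, 132 before that of Atg7 and 108 before that of Bnip3. Atg3 had a pair of matches, at 94 and 71 bases before the start, and the nearer of these holds the longer palindrome TCACGTGA, found in 0.803% of all promoters. The antioxidant response core TGACNNNGC, in 10.1% of all promoters, was found in 3 member windows (Atg13, Ulk2 and Vmp1). The forkhead letters GTAAACA (3.09% of all promoters) and the ATF4 composite letters TGATGNAAT (0.825%) were found in 0 of the 31. These are matches of letters in a window, and they do not show which factor, if any, binds there. Windows of Map1lc3b and Sqstm1, which were also higher, held none of the 5 motifs.

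Among initiation and nucleation genes, 2 of 11 were higher in cluster KO and 0 lower, with a median log2 fold change of 0.00 (-0.004). At 18.2%, the higher share was near the 15.9% of all genes tested. Becn1 (chromosome 11, 101285952 to 101302286, GRCm38) encodes Beclin 1, the scaffold of the lipid kinase complex. It was at 93.5, 121 and 149 CPM in cluster KO against 64.1, 71.1 and 52.0 CPM in wildtype, so that the lowest cluster KO library lay above the highest wildtype one. Its log2 fold change was 0.955 (SE 0.18, adjusted p = 0.00575, edgeR). Becn1 shares 3104 exonic bases with Cntd1 on the other strand, which also rose (log2 fold change 2.88, adjusted p = 0.0187) but at a mean of 33.0 counts against 1967 for Becn1. Atg101 (chromosome 15, 101284272 to 101290945), a subunit that stabilises ATG13 in the ULK complex, was at 129, 131 and 114 against 99.9, 79.0 and 67.7 CPM. Its libraries did not overlap either, and its log2 fold change was 0.60 (SE 0.15, adjusted p = 0.0176, edgeR). The adjusted p of Atg101 rose to 0.0784 without cluster KO 2, 0.0768 without wildtype 2 and 0.0712 without wildtype 3.

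The other 9 genes of this class did not pass. Ulk1, the initiating kinase, was at 42.4, 28.3 and 26.5 against 38.4, 36.4 and 42.0 CPM, with cluster KO 1 at the top of all 6 libraries and the other cluster KO libraries below all wildtype ones. Its log2 fold change was -0.26 (SE 0.19, adjusted p = 0.331, edgeR), and without cluster KO 1 it was -0.51 (SE 0.15, adjusted p = 0.0252, edgeR). Its paralog Ulk2 was at -0.11 (-0.105), and Rb1cc1, which encodes the scaffold FIP200, at -0.27 with adjusted p = 0.153 (edgeR). Rb1cc1 libraries did not overlap, at 64.9, 65.3 and 61.0 against 72.9, 70.6 and 86.4 CPM. Of the lipid kinase complex, the catalytic subunit gene Pik3c3 had a log2 fold change of 0.08, the regulatory subunit gene Pik3r4 -0.32, and the alternative partners of Beclin 1 Atg14 and Uvrag 0.10 and 0.00 (-0.004). Ambra1, a Beclin 1 regulator, was at -0.30 and Atg13 at 0.18, and adjusted p of these 6 genes lay between 0.274 and 0.988 (edgeR).

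Of the genes for phagophore lipid supply and its PI3P effectors, 1 of 5 was higher and 0 lower, with a median log2 fold change of 0.02. This share of 20% was also near the 15.9% of all genes tested. Vmp1 (chromosome 11, 86583865 to 86683836), an endoplasmic reticulum lipid scramblase, was at 151, 199 and 210.1 against 139.8, 130.1 and 105 CPM. Its groups did not overlap, and the log2 fold change was 0.58 (SE 0.16, adjusted p = 0.0218, edgeR). The adjusted p of Vmp1 was 0.0921 without cluster KO 2, 0.0619 without cluster KO 3, 0.0689 without wildtype 2 and 0.0901 without wildtype 3. Atg2a, a lipid transfer protein gene, was at 18.6, 17.97 and 12.7 against 21.4, 21.9 and 24.95 CPM, a log2 change of -0.47 (SE 0.20, edgeR adjusted p = 0.0981). The PI3P binding genes Wipi1 and Wipi2 were at log2 fold changes of 0.02 and 0.22. Atg9a, the vesicle scramblase gene, was the lowest of the 38 in level, at 2.47, 2.86 and 2.37 against 3.80, 1.81 and 2.05 CPM, and its standard error of 0.39 was the widest.

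The conjugation genes held the most higher calls of any class: 6 of 10 were higher and 0 lower, with a median log2 fold change of 0.73. The higher share was 60%, against 15.9% of all genes tested. Atg4b (chromosome 1, 93751500 to 93790610) encodes the main protease that trims ATG8 precursors and later releases ATG8 from membranes. It was at 74.9, 101 and 126 against 47.7, 46.9 and 43.7 CPM, and every cluster KO library lay above all wildtype ones. The log2 fold change was 1.13 (SE 0.18, adjusted p = 0.00328, edgeR), the second highest of the members. Its paralog Atg4d (chromosome 9, 21265293 to 21277772) was at 20.8, 24.5 and 28.8 against 13.2, 11.7 and 10.6 CPM, again without overlap. Atg4d changed by 1.06 (SE 0.19, adjusted p = 0.0048, edgeR) on the log2 scale, and it shares 1405 exonic bases with Kri1 on the other strand, which was at -0.48 (adjusted p = 0.247, edgeR). Atg4a, on the X chromosome, was at 14.03, 23.2 and 25.97 against 13.1, 12 and 9.07 CPM, with cluster KO 1 close to wildtype 1 (a log2 change of 0.89, SE 0.26, edgeR adjusted p = 0.0285). Atg4c, the fourth protease gene, was at 5.94, 7.83 and 8.36 against 4.03, 5.55 and 4.41 CPM and did not pass (a log2 change of 0.66, edgeR adjusted p = 0.0886). Without cluster KO 1 Atg4c passed (0.79, adjusted p = 0.0491, edgeR).

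The ATG12 branch rose in part. Atg5 (chromosome 10, 44268358 to 44364291), which is joined to ATG12 to form the ligase for ATG8, was at 98.1, 108 and 124 against 73.3, 62.1 and 54.1 CPM. Its libraries did not overlap, and the log2 fold change was 0.80 (SE 0.15, adjusted p = 0.00527, edgeR), or 0.50 once trends with transcript length and GC content were removed. Atg12 (chromosome 18, 46730144 to 46741580) was at 57.2, 72.3 and 96.4 against 50.9, 50.3 and 52.9 CPM, where wildtype libraries lay close together and cluster KO libraries spread widely. At 0.55 on the log2 scale (SE 0.18, edgeR adjusted p = 0.0463) it was the nearest to the threshold of the 15. Atg7 (chromosome 6, 114643097 to 114860614), the shared activating enzyme of both conjugation systems, was at 18.3, 31.7 and 33.0 against 12.03, 15.6 and 15.1 CPM (a log2 change of 0.96, SE 0.24, edgeR adjusted p = 0.0159). Atg3, the enzyme that passes ATG8 to lipid, was at 189, 200 and 219.6 against 181, 153 and 119 CPM and missed the threshold (0.42, adjusted p = 0.0638, edgeR). It passed by DESeq2 (adjusted p = 0.0331), without wildtype 1 (edgeR adjusted p = 0.0336) and without cluster KO 1 (adjusted p = 0.05 as rounded), while its log2 fold change was 0.08 once length and GC trends were removed. Atg10, the enzyme that acts on ATG12, was at 0.15, and Atg16l1, which places the ligase on the membrane, at -0.06 on the log2 scale.

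Atg4a, Atg7 and Atg12 each missed the threshold with any 1 of several libraries left out. Leaving out a library also changed the higher share of all genes tested, from 15.9% to between 7.75 and 12.4%. Only without cluster KO 1 did it rise, to 19.4%. The count of higher genes in the class was 3 without cluster KO 2 and 3 without wildtype 3, and up to 8 with another library left out. For Atg4a the adjusted p by edgeR was 0.104 without cluster KO 2, 0.0949 without cluster KO 3, 0.0773 without wildtype 2, 0.112 without wildtype 3 and 0.0999 once length and GC trends were removed, where its log2 fold change was 0.53. For Atg7 it was 0.0716 without cluster KO 2, 0.0583 without wildtype 1 and 0.0532 without wildtype 3. For Atg12 it was 0.107 without cluster KO 2, 0.13 without cluster KO 3 (log2 fold change 0.33), 0.112 without wildtype 1, 0.135 without wildtype 2, 0.113 without wildtype 3 and 0.0641 with upper quartile scaling.

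**Figure D2:**
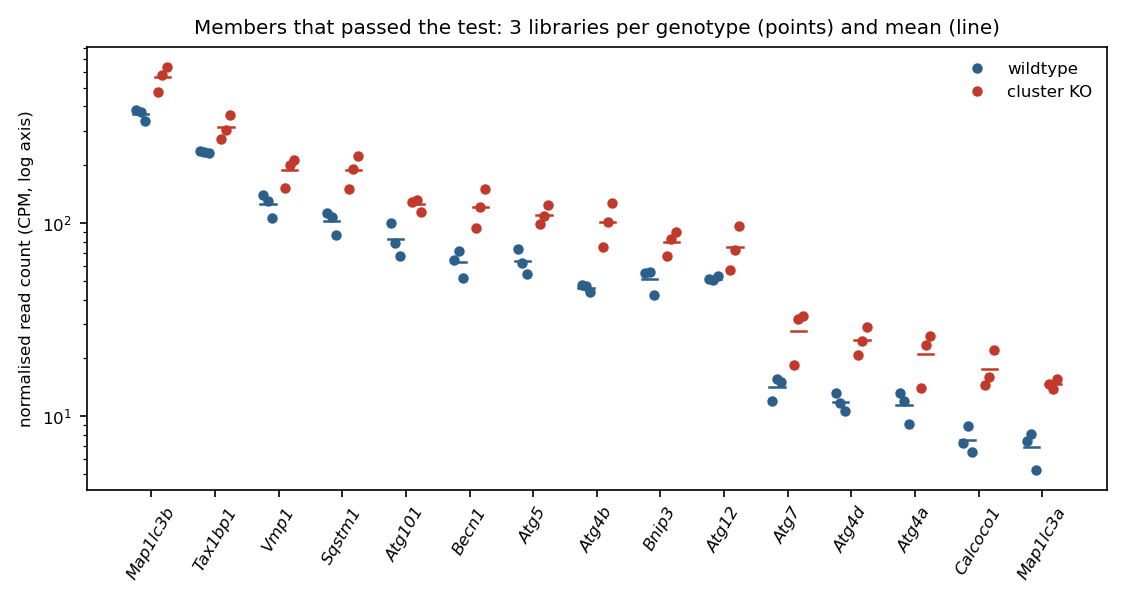
Normalised read count (CPM, log axis) of the 15 genes that passed, with 1 point per library and a line at the mean of each genotype. In each of the 15 the cluster KO points lie above the wildtype points, and the gap is narrowest for Atg4a and Vmp1.

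In the ATG8 family both LC3 genes were higher (40% of the class, against 15.9% of all genes tested) and the 3 GABARAP genes did not pass. Map1lc3b (chromosome 8, 121590361 to 121598760), which encodes LC3B, the usual marker of autophagosomes, was at 474.5, 584 and 639 against 385.0, 374 and 338 CPM. All cluster KO libraries were above all wildtype ones, and the log2 fold change was 0.63 (SE 0.12, adjusted p = 0.00632, edgeR), or 0.32 once length and GC trends were removed. Map1lc3a (chromosome 2, 155276297 to 155278073), encoding LC3A, was far lower in level, at 14.6, 13.8 and 15.5 against 7.47, 8.10 and 5.28 CPM. Its log2 fold change was 1.07 (SE 0.23, adjusted p = 0.00823, edgeR), also without overlap. Gabarap was at 287, 278 and 256 against 253, 247 and 213 CPM (a log2 change of 0.20, edgeR adjusted p = 0.194), so its libraries did not overlap although it missed the threshold. Gabarapl2 was at 0.01 and Gabarapl1 at -0.15 on the log2 scale, with overlapping libraries. Gabarapl1 was at -0.55 (adjusted p = 0.0141, edgeR) once length and GC trends were removed, and Gabarapl2 was at -0.26 (adjusted p = 0.148).

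Shares within the family do not depend on the scaling between libraries. Counts per kilobase of transcript were summed over the 5 genes in each library, and LC3B took 32.1, 37.3 and 41.8% of the sum in cluster KO against 29.8, 29.7 and 28.6% in wildtype (exact permutation p = 0.1). The LC3A share was 2.19 ± 0.163% (SD, n = 3) against 1.27 ± 0.227% (two-sided exact permutation p = 0.1, which is the lowest value 3 against 3 can give). The share of Gabarapl1 was 5.09 ± 0.146% against 6.92 ± 0.757%, and that of Gabarapl2 22.0 ± 2.43% against 26.7 ± 2.33% (exact permutation p = 0.1 for each). Gabarap took 33.7 ± 2.52% and 35.7 ± 1.75%, with overlap (exact permutation p = 0.2). Of 13 shares computed in this way over 4 gene families, the smallest Benjamini-Hochberg adjusted p was 0.217. In the ATG4 family, Atg4b took 60.1 ± 1.31% against 56.3 ± 2.32%, and Atg4d 10.5 ± 1.11% against 10.1 ± 0.517% (exact permutation p = 0.2 and 0.7). A share that moved shows unequal change within the family, not which gene stayed the same.

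**Figure D3:**
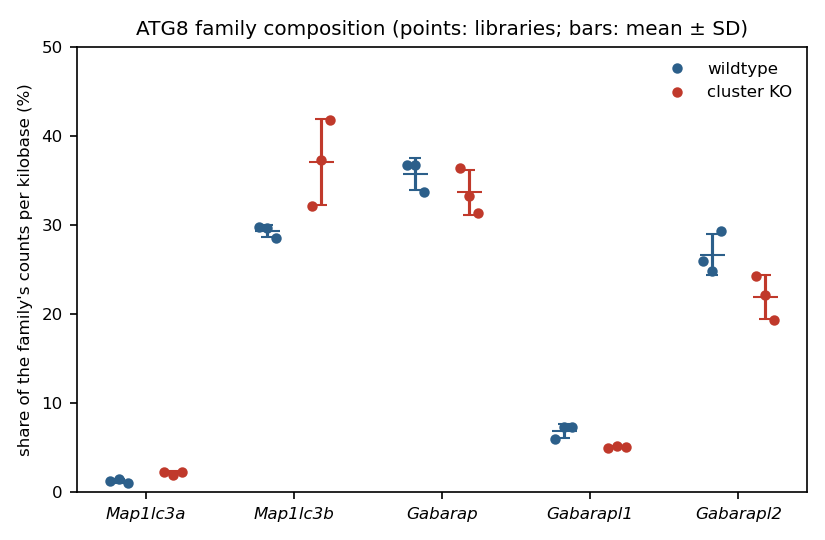
Share of each ATG8 gene in the family's counts per kilobase (y axis, percent) for the 3 libraries of each genotype (points), with mean ± SD. LC3B lies higher in cluster KO at 32.1 to 41.8% against 28.6 to 29.8%, Gabarapl1 and Gabarapl2 lie lower, and Gabarap overlaps.

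Of the receptor genes 4 of 7 were higher and 0 lower, with a median log2 fold change of 0.43 (0.425). The higher share was 57.1%, against 15.9% of all genes tested. Sqstm1 (chromosome 11, 50199366 to 50210827), which encodes p62, a receptor for ubiquitinated cargo that is itself degraded by autophagy, was at 149, 190.2 and 221 against 113, 108 and 86.4 CPM. Every cluster KO library was above all wildtype ones, and the log2 fold change was 0.87 (SE 0.16, adjusted p = 0.00536, edgeR), or 0.44 once length and GC trends were removed. Sqstm1 shares 580 exonic bases with Mrnip on the other strand, which was at 0.52 (adjusted p = 0.127, edgeR) with a mean of 233 counts against 3102. Overlaps with genes on the other strand were 160 bases for Tax1bp1, 504 for Bnip3 and 58 for Map1lc3b. Calcoco1 (chromosome 15, 102706777 to 102722178), a receptor for endoplasmic reticulum and Golgi membranes, had the highest log2 fold change of the 38 genes, at 1.21 (SE 0.23, adjusted p = 0.00575, edgeR). It was at 14.5, 16.0 and 22.1 against 7.28, 8.89 and 6.51 CPM, again without overlap. Tax1bp1 (chromosome 6, 52713729 to 52766780), another receptor for ubiquitinated cargo, was at 272, 302 and 360.0 against 234, 232 and 229 CPM, where the wildtype libraries lay close together (coefficient of variation 1.08%). At 0.43 on the log2 scale (SE 0.12, edgeR adjusted p = 0.0259) its change was the smallest that passed.

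The mitophagy receptors are encoded by Bnip3 and Bnip3l. Bnip3 (chromosome 7, 138890836 to 138909519), known as a hypoxia-induced receptor, was at 67.3, 82.4 and 89.2 against 54.8, 55.9 and 42.4 CPM (a log2 change of 0.64, SE 0.16, edgeR adjusted p = 0.0161). Bnip3l, which encodes the NIX protein that clears mitochondria from red cell precursors, was at 169.7, 177 and 194 against 167, 141 and 127 CPM and did not pass (0.31, SE 0.13, adjusted p = 0.0965, edgeR). The share of Bnip3 in the summed counts per kilobase of the pair was 44.8 ± 2.20% in cluster KO and 39.4 ± 2.45% in wildtype (two-sided exact permutation p = 0.1). Bnip3 was at 0.33 (adjusted p = 0.0841, edgeR) once length and GC trends were removed. Its adjusted p was 0.0685 without cluster KO 2 and 0.0665 without wildtype 3. Tax1bp1 had adjusted p of 0.0782 without cluster KO 2, 0.0632 without cluster KO 3, 0.0686 without wildtype 1, 0.0949 without wildtype 2, 0.0828 without wildtype 3 and 0.0556 with upper quartile scaling. Nbr1, a relative of p62, and Optn, a receptor for damaged mitochondria and bacteria, were at -0.20 and -0.06 on the log2 scale with overlapping libraries. The class held 2 higher genes without cluster KO 2 and 2 without wildtype 3, where 7.75% and 8.02% of all genes tested were higher.

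Levels between genes are given per kilobase of the principal transcript. Gabarap (189 CPM per kilobase over all 6 libraries), Map1lc3b (184) and Gabarapl2 (131.5) led, and the ATG8 conjugating enzyme gene Atg3 (86.1), Tax1bp1 (82.7), Atg101 (81.4) and Sqstm1 (70.9) followed. In the wildtype mean Gabarap stood above Map1lc3b, at 176 against 144 CPM per kilobase, and in the cluster KO mean below it, at 203 against 223. Cluster KO 1 kept the wildtype order, with Gabarap at 212.5 and Map1lc3b at 187.4 CPM per kilobase. The kinase genes Ulk1 (6.84) and Ulk2 (5.52) stood at ranks 25 and 28 of the 38, in CPM per kilobase. The lipid transport genes Atg2a (3.07) and Atg9a (0.623) were nearer the low end, at ranks 33 and 38. Genes that passed were found along the whole order, from rank 2 for Map1lc3b to rank 34 for Atg4d. The 15 higher genes had a median transcript length of 2787 bases and the 23 others 3257 bases.

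**Figure D4:**
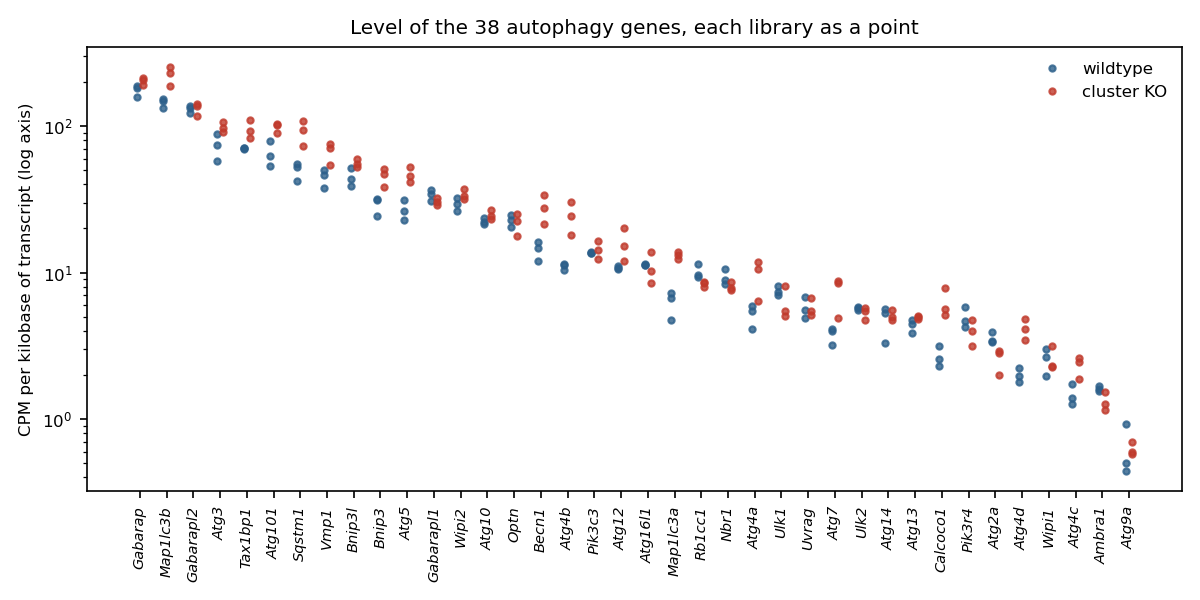
Level of each gene (y axis, CPM per kilobase, log axis), ordered by the mean over the 6 libraries, with 1 point per library. The 3 most abundant genes belong to the ATG8 family, at 131.5 to 189, and Atg9a is lowest at 0.623.

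Cluster KO libraries differed in how far they lay from wildtype. Of the 15 higher genes, cluster KO 1 was the closest of its group to the wildtype mean in 13, and cluster KO 3 the farthest in 14. Among all 4382 genes called, cluster KO 1 was likewise the closest in 78.1% and cluster KO 3 the farthest in 3255 genes. Cluster KO 1 had 10.05% of its reads outside genes, within the wildtype range, and cluster KO 3 had 7.29%. Over all 6 libraries, the members' share of gene counts was lower where the rRNA share was higher, within wildtype too. For wildtype 1 to 3 the member share was 0.273, 0.261 and 0.241%, and the rRNA share 0.998, 1.08 and 1.44%. For cluster KO 1 to 3 these were 0.318, 0.352 and 0.363%, and 0.614, 0.383 and 0.251%. Without cluster KO 1, 17 members were higher, with Atg3 and Atg4c added, and Ulk1 was lower. Calls over all genes tested rose in that fit too, to 19.4% higher and 15.9% lower, from 15.9% and 12.1%. The part of read quality in these orders was not tested.

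Other genes of the pathway were taken from lists that do not include the members. Of 15 further selective receptors 14 were tested, 7 were higher and 2 lower, with a median log2 fold change of 0.47. These were shares of 50% and 14.3%, against 15.9% and 12.1% of all genes tested. Ncoa4, the ferritin receptor that releases stored iron, rose from a mean of 6.54 to 23.2 CPM (a log2 change of 1.82, SE 0.35, edgeR adjusted p = 0.0055). Retreg1, a receptor for endoplasmic reticulum sheets, rose by 1.17 (SE 0.22), and Fkbp8, a mitochondrial receptor, by 0.66 (SE 0.15). Bcl2l13, another mitochondrial receptor, changed by -0.56 (SE 0.13), and Sec62, a receptor of the endoplasmic reticulum in recovery from stress, by -0.48 (SE 0.12). Against the background of 15.9% and 12.1%, 16 further core autophagy genes held 2 that were higher and 4 that were lower. Atg2b, the paralog of Atg2a, changed by -1.07 (SE 0.18, adjusted p = 0.00386, edgeR), the aggregate scaffold gene Wdfy3 by -0.76 (SE 0.18), Trim28, best known as a transcriptional corepressor, by -0.34 (SE 0.10) and Atg9b by -1.60 (SE 0.49). Atg16l2, the paralog of Atg16l1, changed by 0.62 (SE 0.18) and the PI3P effector gene Wdr45b by 0.51 (SE 0.16), all on the log2 scale.

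Lists of later steps and of upstream control are read against the 27.9% of all genes tested that passed in either direction. The share that passed was 20% for fusion with lysosomes, 18.5% for nutrient sensing and 40% for transcription factors. Of 15 genes for fusion with lysosomes 1 was higher and 2 lower: the small GTPase gene Rab7 changed by 0.78 (SE 0.17), the SNARE gene Ykt6 by -0.80 (SE 0.20) and the tethering gene Vps18 by -0.63 (SE 0.21, adjusted p = 0.0494, edgeR). Of 27 nutrient sensing genes 3 were higher and 2 lower, among them the stress-induced mTORC1 inhibitor Sesn1 (0.93, SE 0.20) and Lamtor1 (0.67, SE 0.15), which rose, as did the Rag GTPase gene Rragb (0.57, SE 0.17), and Lamtor2 (-0.54, SE 0.12) and Prkab2 (-0.99, SE 0.29), which fell. Of 10 transcription factor genes 1 was higher and 3 lower. Foxo3, a forkhead factor that sustains autophagy genes in stem cells, changed by -0.69 (SE 0.16), Foxo4 by -1.32 (SE 0.40), Tfe3 by -0.65 (SE 0.20) and Tfec by 0.78 (SE 0.22) on the log2 scale. The mRNA of Tfeb, which reads the E-box core searched above, was at 0.46 (SE 0.32, adjusted p = 0.308, edgeR).

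**Figure D5:**
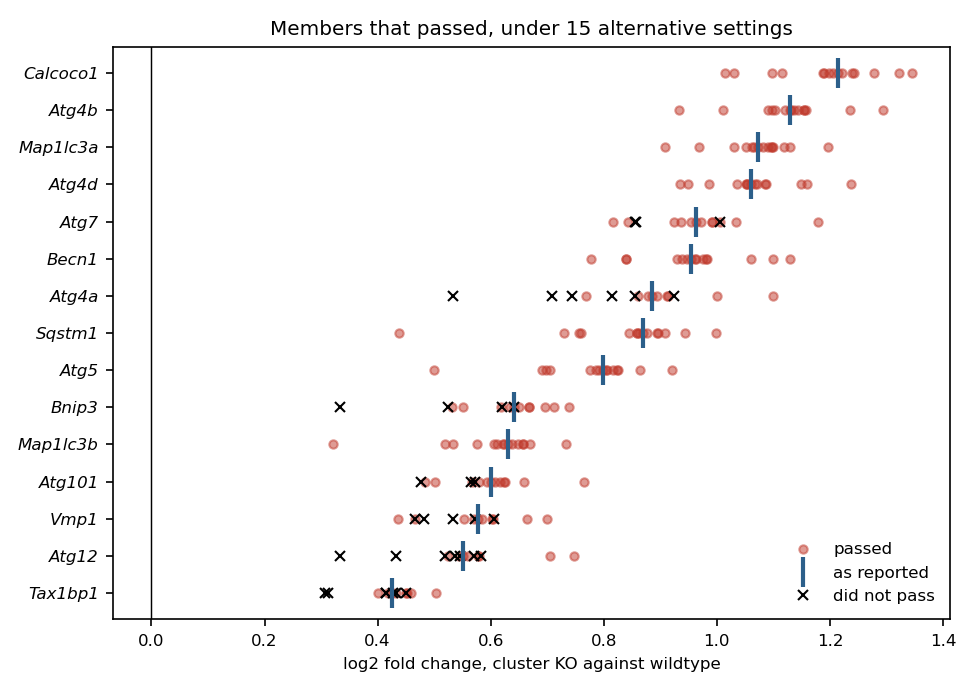
Log2 fold change (x axis) of the 15 genes that passed, under 15 other settings of the processing or with 1 library left out. Red points passed, black crosses did not, and the blue bar is the reported value. None of the 15 settings gave any of these genes a value below 0.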

How the data were processed

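Gene counts of 3 cluster KO and 3 wildtype bone marrow libraries were analysed. Per the labels, libraries were poly(A) selected (Clontech) and made with a Nextera XT kit without strand. The authors deposited raw read counts per Ensembl gene, and the submitters' processing notes name bcl2fastq, TopHat2, HTSeq and mm10. The sources used here give no version, annotation release or counting mode. Without strand, reads of overlapping genes on the other strand cannot be told apart. The table holds 47729 genes and 5 summary rows, which were left out. In cluster KO and wildtype libraries these rows held 13.38 to 14.68% and 16.12 to 16.81% of reads as reads with more than 1 alignment, and 7.29 to 10.05% and 10.03 to 11.06% as reads outside genes.

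Groups came from the sample titles. Counts were fitted with edgeR 4.0.16 in R 4.3.3: TMM, filterByExpr with a minimum count of 10, robust quasi-likelihood fit, genotype as the only term, and Benjamini-Hochberg adjustment over 15686 genes at 0.05. The standard error was the fold change divided by the square root of F. CPM used TMM-scaled library sizes. A count of 0 allows up to 3 counts, or 0.128 to 0.17 CPM, for counting error only. Names, positions, transcript lengths and GC content came from GENCODE M21 on GRCm38 (47224 genes matched), using the longest principal transcript. Alternatives were DESeq2 1.42.0, other scalings and filters, a fit that was not robust, a replicate block, removal of length and GC trends (splines with 5 degrees of freedom), and leaving out each library. The members and lists were chosen with earlier results of these data known. Every member that passed is given in full, and of each other list at most the 4 genes with the smallest p, apart from Tfeb and genes that complete a count of 5 or fewer, chosen after their values were seen.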

Additional observations from a re-analysis of the deposited data

How the results depend on the processing

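Of the 15 higher members 8 passed under all 15 alternatives (Becn1, Atg4b, Atg4d, Atg5, Map1lc3a, Map1lc3b, Sqstm1 and Calcoco1), 7 missed the threshold under at least 1, and 0 changed sign. With 1 library left out, 8 to 17 members were higher and 0 to 1 lower, and over all genes 1258 to 3151 were higher and 742 to 2579 lower. With length and GC trends removed, 13 members were higher and 1, Gabarapl1, was lower. Same-numbered libraries had correlated deviations of -0.167, 0.008 and -0.139, and other pairs -0.028 to 0.174. With 3 libraries per genotype, each centred on its group mean, these values cannot show whether the numbers pair libraries. With the replicate block, 1331 genes were higher and 865 lower, and 10 members were higher, without Vmp1, Atg4a, Atg12, Tax1bp1 and Bnip3. Only members that had not passed changed sign, 13 in all, and the cause was not tested.

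These are log2 fold changes under the settings that changed their sign. With length and GC trends removed, Ulk2 was at 0.15 (0.145), Rb1cc1 0.11, Uvrag 0.16, Wipi1 -0.41, Wipi2 -0.20, Atg10 -0.059, Gabarapl2 -0.26 and Nbr1 0.0027. With upper quartile scaling, Pik3c3 was at -0.037, Atg14 -0.0035, Wipi1 -0.085, Atg9a -0.096 and Gabarapl2 -0.088. Uvrag was at 0.0031 with DESeq2's size factors in edgeR, 0.020 with DESeq2 and 0.019 without a low count filter. With a minimum count of 50, Wipi1 was at -0.00034, Atg9a -0.019 and Gabarapl2 -0.0082. Atg9a was at -0.0046 when ribosomal protein and mitochondrial genes were left out of the scaling. With 1 library left out, the range was -0.10 to 0.23 for Atg14, -0.28 to 0.073 for Atg16l1, -0.19 to 0.41 for Atg9a, -0.049 to 0.092 for Gabarapl2, -0.18 to 0.059 for Optn, -0.033 to 0.16 for Pik3c3, -0.14 to 0.13 for Uvrag and -0.14 to 0.16 for Wipi1. Atg9a had 32 to 84 counts per library, the fewest of the members, and a coefficient of variation of 42.5% between wildtype libraries.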
